A study of Mus musculus with 14 samples.

Results

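The Skint genes form a family of butyrophilin-like genes of the immunoglobulin superfamily. They are expressed in mouse skin and thymic epithelium. Its 10 members described here are Skint1, Skint2, Skint3, Skint4, Skint5, Skint6, Skint7, Skint9, Skint10 and Skint11, chosen by name, out of 22033 genes in the series. Skint1, the founding member, is required in the thymus for the development of the gamma-delta T cells that later populate the mouse epidermis, the dendritic epidermal T cells. These cells survey keratinocytes and help wounds to close. The roles of the other members are less well established, so the results are ordered by the populations in which each gene was high.

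The RNA came from epithelial cells of the dorsal skin of wild type C57BL/6 mice, isolated by flow cytometry. Telogen skin, with resting hair follicles, gave bulge stem cells (tBSC) and interfollicular epidermis (Epi). Depilated skin, in which follicles are made to grow, gave activated bulge stem cells (aBSC). Each of these 3 populations had 2 libraries at 2 months of age and 2 at 24 months, 12 libraries in 6 groups. Wounded epidermis had 1 library at each age. The labels do not say that libraries of a group came from separate mice, so p-values measure the spread between libraries, which may be technical. They give no sex.

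Levels are in FPKM, which counts sequenced fragments relative to transcript length and library size, and were summed over the transcripts of a gene. The deposited coverage of the 12 libraries summed to 1242 to 2532 megabases. Bulge markers matched the labels: 11 of 12 bulge markers at 2 months, and 12 of 12 at 24 months, were higher in tBSC than in Epi. Markers of dendritic epidermal T cells summed to 6.75 to 25.0 FPKM over the 17 genes matched of 20 listed in any of the 12 libraries. Suprabasal keratinocyte markers, genes of differentiating epidermal cells, did vary between libraries of 1 group. They summed to 4173 and 9591 FPKM in tBSC and to 11550 and 1232 FPKM in aBSC at 2 months. In Epi they summed to 4238 to 5678 FPKM, and in tBSC at 24 months to 8549 and 8053 FPKM. Melanocyte markers summed to 18.0 to 58.9 FPKM in tBSC and to 2.33 to 4.25 FPKM in Epi. Langerhans cell markers summed to 15.9 to 116 FPKM over the 12 libraries. The fibroblast markers summed to 427 FPKM in aBSC replicate 1 at 2 months and to at most 32.6 FPKM in any other library. All 4 aBSC libraries held Xist at 15.8 to 141 FPKM with the Y-linked Eif2s3y at no more than 0.137 FPKM. The 8 tBSC and Epi libraries held Xist at no more than 0.28 FPKM and Eif2s3y at 18.0 to 48.6 FPKM. Activation and this difference in sex-linked genes therefore cannot be told apart.

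The 10 genes lie together on mouse chromosome 4, at chr4:111645532-113917633 in the mm9 build of the files, a stretch of 2.27 Mb. In order along it they are Skint7, Skint1, Skint4, Skint3, Skint9, Skint2, Skint10, Skint6, Skint5 and Skint11. Skint9, Skint10, Skint6 and Skint5 are on the minus strand and the other 6 on the plus strand. Skint5, with up to 59 exons over 521613 bases, and Skint6, with up to 49 exons over 482358 bases, are the long members. The remaining 8 have at most 11 exons in the transcripts of the 12 libraries. Skint8, which lies before Skint7, is not among the 10 and is given below as a neighbour.

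The stretches before the transcription starts, taken from RefSeq (build GRCm38.p6), divide the family by shared sequence, and are shown because some members that share a run of bases also shared a pattern of expression while others did not. The longest run of bases common to 5 or more members was 14 bases, and it is in capitals in the sequences of Skint1, Skint4, Skint3, Skint5 and Skint6 below. For Skint1 and Skint4 the 250 bases before the start are given, and for the other members the run with its flanks.
Skint1 (chr4:112006019-112006268, plus strand): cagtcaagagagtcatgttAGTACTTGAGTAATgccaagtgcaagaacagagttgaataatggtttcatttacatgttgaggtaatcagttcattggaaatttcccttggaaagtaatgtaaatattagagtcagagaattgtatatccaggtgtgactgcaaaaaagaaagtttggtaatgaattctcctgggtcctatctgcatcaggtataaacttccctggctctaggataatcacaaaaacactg
Skint4 (chr4:112081220-112081469, plus strand): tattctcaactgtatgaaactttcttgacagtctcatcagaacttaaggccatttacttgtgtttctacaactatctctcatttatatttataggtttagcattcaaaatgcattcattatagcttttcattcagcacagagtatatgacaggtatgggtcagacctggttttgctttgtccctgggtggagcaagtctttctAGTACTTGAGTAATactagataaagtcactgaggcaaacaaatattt
Skint3 (chr4:112232107-112232190, plus strand): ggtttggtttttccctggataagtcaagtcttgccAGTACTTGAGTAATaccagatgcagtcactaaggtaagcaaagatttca
Skint5 (chr4:113999683-113999753, minus strand): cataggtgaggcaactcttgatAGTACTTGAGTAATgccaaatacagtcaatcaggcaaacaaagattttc
Skint6 (chr4:113287153-113287223, minus strand): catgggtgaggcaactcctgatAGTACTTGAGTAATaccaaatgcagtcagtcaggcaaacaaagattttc

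Of 32851 promoter windows of the same length (250 bases before to 50 after a start), 5 held this run on either strand, 0.0152%, and all 5 belonged to these members. Its position differed: counted from the start, with -1 the last base before it, the run began at -231 in Skint1, -228 in Skint5 and Skint6, -103 in Skint3 and -47 in Skint4. Among the members without it, the longest run common to 3 or more was 13 bases, in Skint9, Skint10 and Skint11, again in capitals.
Skint9 (chr4:112434137-112434219, minus strand): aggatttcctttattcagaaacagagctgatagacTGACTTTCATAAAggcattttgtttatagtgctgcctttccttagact
Skint10 (chr4:112774927-112775009, minus strand): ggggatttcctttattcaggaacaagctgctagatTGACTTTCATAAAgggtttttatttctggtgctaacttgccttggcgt
Skint11 (chr4:114163287-114163369, plus strand): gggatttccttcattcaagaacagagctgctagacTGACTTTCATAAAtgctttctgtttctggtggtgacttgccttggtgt

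These were the 3 windows of 32851 that held the second run (0.00913%). Both runs were picked after the sequences were compared. The 10 members had 11 windows, as Skint4 has more than 1 annotated start, and only the Skint4 window shown held the first run. Which start of Skint4 these cells use was not tested. As the values below show, Skint1 and Skint4 shared the first run and differed in opposite directions between bulge and epidermis, while of the 3 members with the second run, Skint9 and Skint10 had similar profiles over the 12 libraries (Pearson r = 0.943) and Skint11 followed neither (r = 0.0624 with Skint9 and 0.181 with Skint10). Of motifs searched on both strands, the STAT motif TTCNNNGAA was in the window of Skint9 alone among the members (8.30% of all windows), the AP-1 motif TGANTCA in that of Skint11 alone (7.81%), and the GATA motif GATAAG in those of Skint3, Skint4 and Skint5 (7.44%). The CRE motif TGACGTCA (1.79%) and the RUNX motif AACCACA (5.27%) were in no member's window. In Skint4 the GATA motif was only in the window with the first run. The motifs neither overlap each other nor the shared runs in these windows.

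All 10 members passed the filter for testing, at least 1 FPKM in at least 2 of the 12 libraries. Skint2 reached 1 FPKM in 6 libraries, Skint5 and Skint7 in 11, and the other 7 members in all 12. The family is thus read in each population, with Skint2 near the lower limit. By contrast, of 13 other butyrophilin-type genes looked for, 8 were matched in these files (such as Btn1a1 and Btnl9), and all 8 were below 1 FPKM in every library, and summed to 0.39 to 1.49 FPKM per library. The summed FPKM of the 10 members was 100.1, 146.9, 123.7 and 120.6 in the 4 Epi libraries, 55.5 to 133.7 in tBSC and 26.7 to 124.7 in aBSC. The family sum overlapped between the 3 populations.

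**Figure D1:**
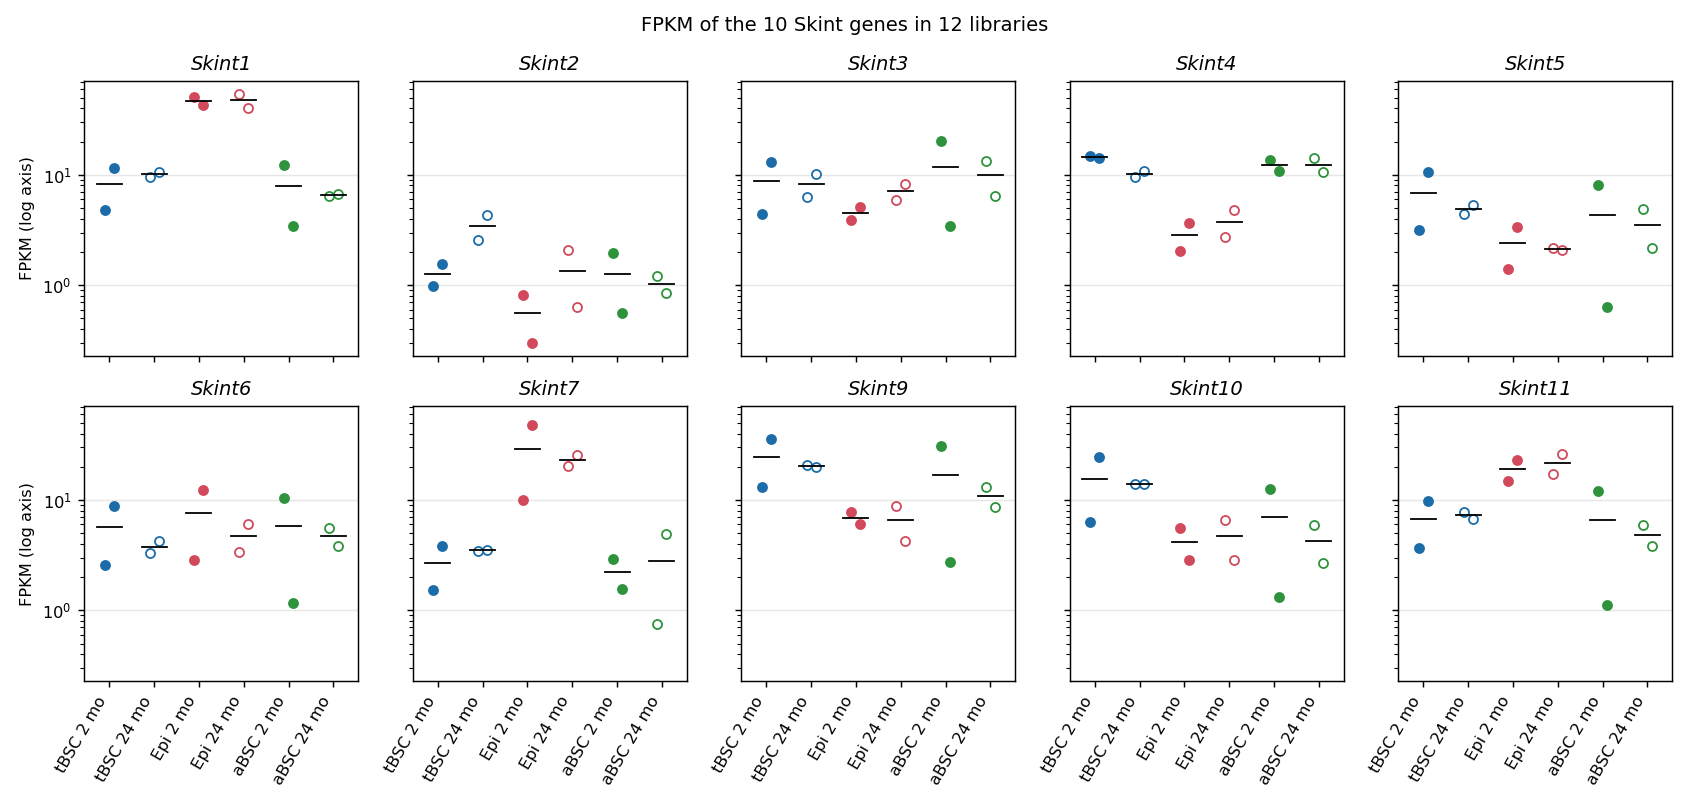
FPKM (log axis) of each of the 10 Skint genes in 12 libraries, 1 panel per gene. Points are libraries, filled at 2 months and open at 24 months, and black lines are group means (n = 2). Skint1, Skint7 and Skint11 are highest in the epidermis (Epi), Skint4 in both kinds of bulge cells (tBSC, aBSC).

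What differed was the make-up of the family. Skint1, Skint7 and Skint11 together gave 75.7%, 77.1%, 74.4% and 76.0% of the family sum in the 4 Epi libraries. In tBSC the same 3 genes gave 18.2%, 18.9%, 25.6% and 23.2%, and in aBSC 21.9%, 22.9%, 18.4% and 30.6%. The 3 genes were grouped after their values were seen, so this is a description with no test. The leading member was Skint9 in 3 of 4 tBSC libraries, Skint4 in 3 of 4 aBSC libraries and Skint1 in 3 of 4 Epi libraries. Skint4 led the remaining tBSC library, Skint9 the remaining aBSC library and Skint7 the remaining Epi library. Skint2 or Skint7 was the lowest member in every library.

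**Figure D2:**
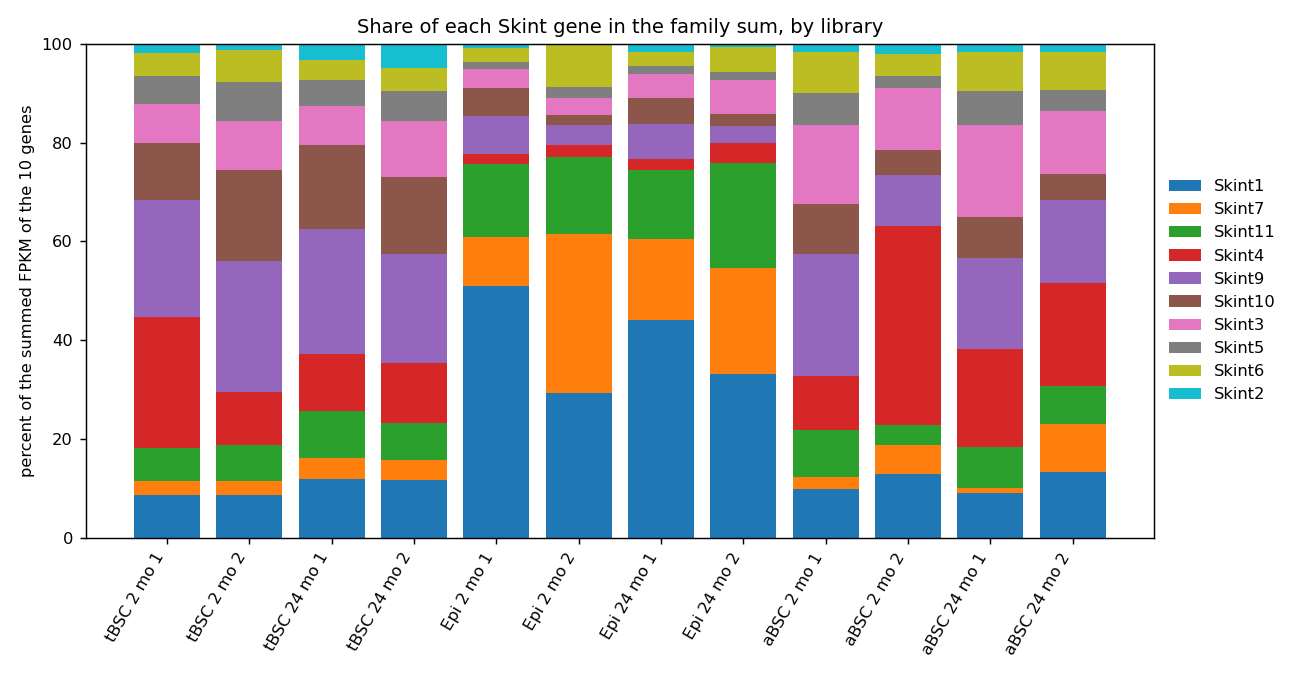
Percent of the summed FPKM of the 10 genes taken by each Skint gene, 1 bar per library. Skint1, Skint7 and Skint11, the lowest 3 layers, fill 74.4% to 77.1% of each epidermal bar and 18.2% to 30.6% of each bulge bar.

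The first comparison set resting bulge stem cells against epidermis. At 2 months, 3 of 10 members differed: Skint4 was higher in tBSC, and Skint1 and Skint7 were higher in Epi. The test was limma on log2(FPKM + 1), fitted across all 12468 genes with 1 mean per group, with calls at a Benjamini-Hochberg adjusted p under 0.05. Of all genes, 20.1% were called, 13% higher and 7.15% lower in tBSC, so 3 of 10 is not far from that background. At 24 months the same 3 members were called in the same directions, against 20.5% of all genes (12.8% higher and 7.74% lower). In bulk RNA, fewer cells of a type and less RNA per cell cannot be told apart. The 2 ages were fitted from separate libraries but share 1 estimate of the spread.

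Skint1 read 50.9 and 42.9 FPKM in Epi at 2 months and 54.5 and 40.1 FPKM in Epi at 24 months. In tBSC it read 4.84 and 11.5 FPKM at 2 months and 9.64 and 10.5 FPKM at 24 months. Each Epi library lay above each tBSC library. The log2 difference, tBSC minus Epi, was -2.48 (SE 0.488, adjusted p = 0.00506) at 2 months, with a mean 5.73-fold higher in Epi, and -2.11 (SE 0.488, adjusted p = 0.0119) at 24 months, with a mean 4.69-fold higher. The call was lost without tBSC replicate 1 at 2 months (-1.93), and at 24 months without tBSC replicate 1 (-2.05), tBSC replicate 2 (-2.17) or Epi replicate 1 (-1.89).

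Skint7, which lies beside Skint1 and has no established role of its own, read 9.98 and 47.3 FPKM in Epi at 2 months and 20.3 and 25.7 FPKM at 24 months. In tBSC it read 1.55 and 3.86 FPKM at 2 months and 3.44 and 3.53 FPKM at 24 months. No tBSC library reached an Epi library, but the 2 Epi libraries at 2 months were themselves far apart. The log2 difference was -2.71 (SE 0.692, adjusted p = 0.0191) at 2 months and -2.41 (SE 0.692, adjusted p = 0.0332) at 24 months. At 2 months the call was lost without Epi replicate 2 (-1.64) or tBSC replicate 1 (-2.25), and at 24 months without any 1 of the 4 libraries compared (-2.25 to -2.57). With no filter on low values Skint7 missed the threshold in all 4 comparisons of bulge with epidermis (adjusted p = 0.0624 in tBSC at 2 months). In tBSC at 24 months it also missed under quantile normalization (adjusted p = 0.0579) and with 0.1 added in place of 1 (0.0508). Scaling to equal library totals lost the call there (0.074) and in aBSC at 2 and 24 months (0.0611 and 0.0783). Skint7 shares 6.83% of its 50-base words with Skint8 in the annotated transcripts, so some reads of the pair could be counted for either gene.

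Skint4 ran the other way. It read 14.7 and 14.2 FPKM in tBSC at 2 months and 9.49 and 10.8 FPKM at 24 months. Epi libraries read 2.03 and 3.63 FPKM at 2 months and 2.72 and 4.77 FPKM at 24 months, all below every tBSC library. The difference was 2.05 (SE 0.294, adjusted p = 0.000811) at 2 months and 1.27 (SE 0.294, adjusted p = 0.0121) at 24 months, or means 5.12-fold and 2.71-fold higher in tBSC. At 24 months the call was lost without tBSC replicate 1 (1.35), tBSC replicate 2 (1.18) or Epi replicate 1 (0.949). It was also lost there with equal library totals (1.13, adjusted p = 0.0568). Skint4 had the smallest standard error of the 10 members.

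Skint11, the last gene of the cluster, read 14.8 and 23.0 FPKM in Epi at 2 months and 17.3 and 25.8 FPKM at 24 months, against 3.69, 9.80, 7.77 and 6.72 FPKM in the 4 tBSC libraries. Again each Epi library lay above each tBSC library. The difference did not pass: -1.45 (95% interval -3.02 to 0.114, adjusted p = 0.19) at 2 months and -1.43 (-2.99 to 0.137, adjusted p = 0.196) at 24 months. Skint11 has a transcript of 1393 bases and one of 820 bases. The longer made up 31.9%, 42.0%, 46.3% and 32.3% of the gene in the Epi libraries and 49.4% to 76.5% in the 8 bulge libraries, which did not overlap. With the transcript of 820 bases, the most abundant over the 12 libraries, in place of the sum, Skint11 was called lower in tBSC at 2 months (-1.94, adjusted p = 0.0361). At 24 months it was not called in tBSC. In aBSC it was called lower than in Epi at 2 months (-1.96, adjusted p = 0.0496) and 24 months (-2.60, adjusted p = 0.0134). The transcript of 820 bases was picked by its mean over all 12 libraries. It read 9.29 to 17.5 FPKM in Epi and at most 5.72 FPKM in bulge. The pick thus favours a lower level in bulge, and these calls of Skint11 add no separate support.

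Skint9 and Skint10 were higher in tBSC by their values but did not pass. Skint9 read 13.2, 35.4, 20.6 and 19.7 FPKM in the 4 tBSC libraries and 7.75, 6.05, 8.82 and 4.22 FPKM in the 4 Epi libraries. The difference was 1.54 (95% interval -0.275 to 3.35, adjusted p = 0.233) at 2 months and 1.56 (-0.247 to 3.37, adjusted p = 0.222) at 24 months. Skint10 read 6.33, 24.7, 13.8 and 13.95 FPKM in tBSC and 5.56, 2.84, 6.59 and 2.85 FPKM in Epi, with adjusted p-values of 0.252 and 0.244. Within each age the groups did not overlap for either gene. The spread is shared over all 6 groups, and with either replicate of aBSC at 2 months left out, Skint9 and Skint11 were called at both ages with the same differences.

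Of the last 4 members, Skint3 and Skint6 overlapped between the groups at both ages, Skint5 at 2 months alone, and Skint2 at neither age. Skint3 read 4.46 to 13.2 FPKM in tBSC and 3.93 to 8.33 FPKM in Epi. Skint5 read 3.17 to 10.5 FPKM in tBSC and 1.41 to 3.39 FPKM in Epi, and Skint6, its long neighbour, 2.57 to 8.88 FPKM and 2.87 to 12.4 FPKM. Skint2, the lowest member, read 0.986 and 1.55 FPKM in tBSC at 2 months and 2.56 and 4.36 FPKM at 24 months, against 0.818 and 0.297 FPKM in Epi at 2 months and 2.07 and 0.636 FPKM at 24 months. None of the 4 passed at either age. Members whose groups did not overlap numbered 7 of 10 at 2 months and 8 of 10 at 24 months, against 58.5% and 68.9% of all genes.

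**Figure D3:**
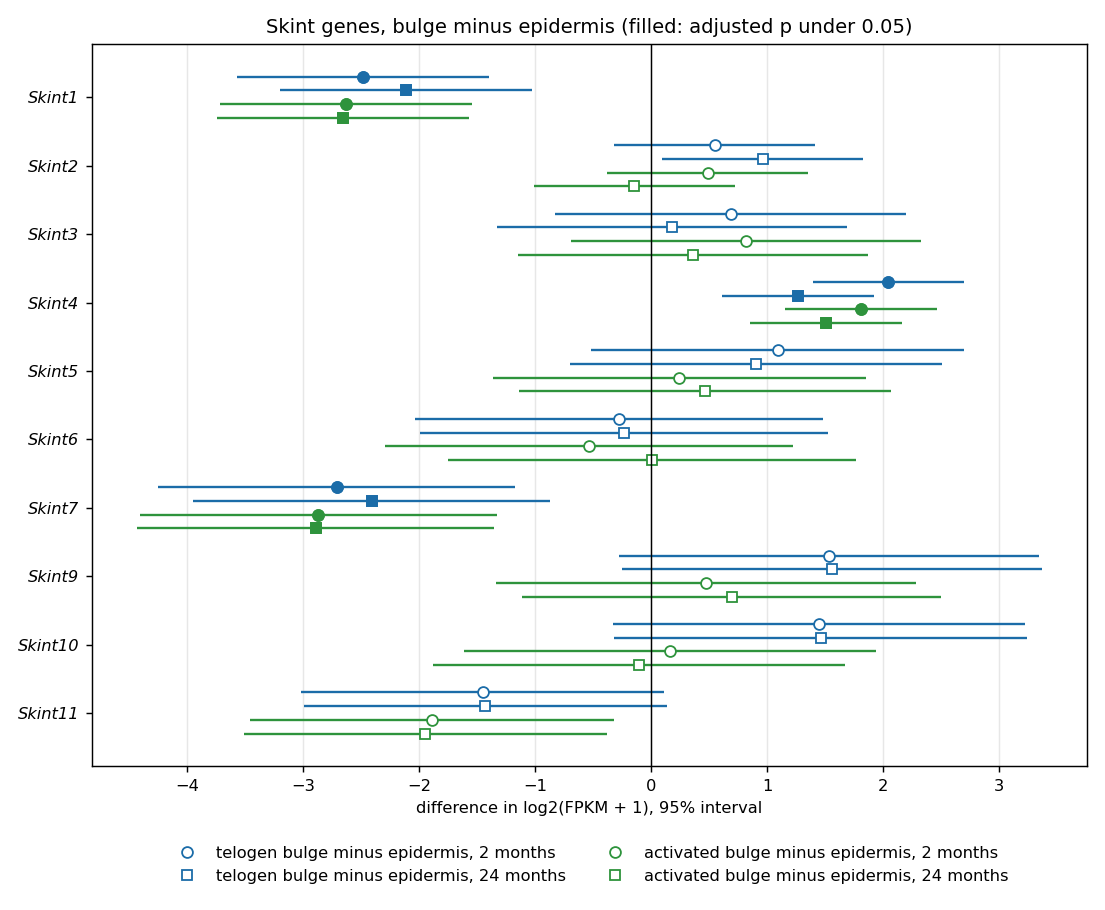
Differences in log2(FPKM + 1), bulge minus epidermis, for each Skint gene with 95% intervals from limma. Blue is telogen bulge, green activated bulge, circles 2 months and squares 24 months, and filled symbols passed an adjusted p of 0.05. Skint1 and Skint7 lie left of 0 and Skint4 right of 0 in all 4 comparisons.

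Bulge stem cells from depilated skin were then set against the same Epi libraries, so these comparisons share their Epi samples with those above and are not independent of them. The 3 members called were again Skint4 (higher in aBSC), Skint1 and Skint7 (lower), at both ages. Of all genes 12.7% were called at 2 months (9.12% higher, 3.54% lower) and 12.6% at 24 months (8.41% higher, 4.19% lower). Skint1 read 12.4 and 3.43 FPKM in aBSC at 2 months and 6.44 and 6.73 FPKM at 24 months, with differences from Epi of -2.63 (SE 0.488, adjusted p = 0.00541) and -2.65 (SE 0.488, adjusted p = 0.00506). All 4 values were below the lowest Epi library.

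Skint7 read 2.90 and 1.55 FPKM in aBSC at 2 months and 0.755 and 4.88 FPKM at 24 months. Its differences from Epi were -2.87 (SE 0.692, adjusted p = 0.0218) and -2.89 (SE 0.692, adjusted p = 0.0206). Skint4 read 13.6 and 10.8 FPKM at 2 months and 14.1 and 10.5 FPKM at 24 months, close to its level in resting bulge. Its differences from Epi were 1.81 (SE 0.294, adjusted p = 0.00257) and 1.51 (SE 0.294, adjusted p = 0.00699). Skint11 read 11.99 and 1.13 FPKM at 2 months and 5.87 and 3.80 FPKM at 24 months, and its differences of -1.89 (adjusted p = 0.125) and -1.95 (adjusted p = 0.116) did not pass. At 2 months the call of Skint7 was lost without Epi replicate 2 (-1.80) or aBSC replicate 2 (-2.56). At 24 months it was lost without Epi replicate 1 (-3.06), Epi replicate 2 (-2.73) or aBSC replicate 1 (-2.02), and that of Skint4 without Epi replicate 1 (1.19) or aBSC replicate 1 (1.31). The groups did not overlap for 4 of 10 members at 2 months and 5 of 10 at 24 months, against 39.7% and 43.5% of all genes.

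Activated and resting bulge were compared with each other next. Between aBSC and tBSC, 0 of 10 members were called at 2 months, where 12.8% of all genes were (6.6% higher, 6.19% lower), and 0 of 10 at 24 months, where 8% were (4.11% higher, 3.9% lower). At an unadjusted p under 0.05 the counts were 0 and 1 members, beside 3742 and 3337 of all 12468 genes. Differences at 2 months ran from -1.29 (Skint10, 95% interval -3.06 to 0.491) to 0.132 (Skint3, -1.38 to 1.64), so changes of several fold in most members lie within the intervals. At 24 months the largest was Skint10, at 13.8 and 13.95 FPKM in tBSC and 5.90 and 2.66 FPKM in aBSC (-1.57, 95% interval -3.34 to 0.21, adjusted p = 0.234). Skint2, at 2.56 and 4.36 FPKM in tBSC and 1.21 and 0.857 FPKM in aBSC, followed (-1.11, 95% interval -1.98 to -0.241, adjusted p = 0.109). Under quantile normalization Skint2 was called lower at 24 months (-1.31). Without aBSC replicate 1 at 2 months, Skint9 (-2.60), Skint10 (-2.56) and Skint5 (-2.09) were called lower in aBSC at that age, which rests on 1 aBSC library. The groups did not overlap for 1 of 10 members at 2 months and 5 of 10 at 24 months, against 64.8% and 70.6% of all genes.

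The 2 libraries of aBSC at 2 months disagreed on the family. All 10 members were lower in replicate 2 than in replicate 1, with a median difference of -2.33 on the log2 scale, where the median of all genes was -0.201. Skint9 read 30.7 and 2.76 FPKM in them, Skint10 12.6 and 1.34 FPKM and Skint3 20.1 and 3.40 FPKM, while Skint4 read 13.6 and 10.8 FPKM. Replicate 1 is the library with the fibroblast markers at 427 FPKM. In tBSC at 2 months, 9 of 10 members were higher in replicate 2, by a median of 1.28, with Skint9 at 13.2 and 35.4 FPKM. The suprabasal markers moved the same way in these pairs, 11550 and 1232 FPKM in aBSC and 4173 and 9591 FPKM in tBSC. In aBSC at 24 months both were also lower in replicate 2 (members by a median of -0.481, markers 6970 and 2558 FPKM). The other groups went opposite ways. There the members were higher in replicate 2, by a median of 0.450 and 0.142 in Epi at 2 and 24 months and 0.143 in tBSC at 24 months. Their markers were lower, at 5678 and 4238, 5433 and 4513, and 8549 and 8053 FPKM. Over the 12 libraries the log2 level of Skint10 correlated with that of the suprabasal sum at r = 0.875, Skint9 at 0.842, Skint5 at 0.836 and Skint3 at 0.723, as a description. The values were 0.632 for Skint2, 0.588 for Skint6, 0.518 for Skint11, 0.25 for Skint1, 0.108 for Skint4 and -0.0296 for Skint7. The part of differentiated cells in the levels of the members was not tested.

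Replicate 2 also read longer transcripts higher than replicate 1 in Epi at 2 months and in aBSC at both ages, with Spearman correlations of 0.526, 0.544 and 0.469 between transcript length and the difference. Without these 3 libraries, Skint1, Skint4 and Skint7 were still called in tBSC against Epi at 2 months. In aBSC against Epi at 2 months only Skint4 was, with Skint1 at -1.96 and Skint7 at -1.49. This leaves 1 library each of Epi and of aBSC at 2 months and 1 of aBSC at 24 months, which are assumed to vary like the groups that keep 2 libraries, so the aBSC comparison at 2 months sets 1 library against 1. That setting was chosen after seeing the data.

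Some members followed each other closely. Skint1 correlated with Skint11 (r = 0.91) and Skint7 (r = 0.887) over the 12 libraries, and Skint9 with Skint10 (r = 0.943) and Skint5 (r = 0.915). Skint4 ran against Skint1 (r = -0.897) and Skint7 (r = -0.824). Skint6 correlated with genes on both sides, Skint5 (r = 0.70), Skint3 (r = 0.663) and Skint11 (r = 0.653), and Skint2 most with Skint10 (r = 0.764), so the 10 members did not divide cleanly into sets. The libraries share their populations, depth and the differences between replicates above, so these values are descriptions. Skint1, Skint7 and Skint4 are consecutive in the cluster, and Skint11 is at its far end.

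Neighbouring genes within 1 Mb of the cluster did not share 1 pattern. Skint8, just before Skint7, read 2.05 to 6.37 FPKM in Epi and 1.11 to 2.60 FPKM in bulge libraries and was not called. Spata6 was higher in tBSC than in Epi at 2 months (1.10, adjusted p = 0.0109), as was Bend5 (2.04, adjusted p = 0.000326). Gm12824, after Skint11, read 24.2 to 30.1 FPKM in tBSC and 0.406 to 0.802 FPKM in Epi (3.97 at 2 months, adjusted p = 6.56e-05). Stil, needed for centriole duplication, was lower in tBSC than in Epi (-1.39, adjusted p = 0.0193) and higher in aBSC than in tBSC (2.06, adjusted p = 0.00511). Cmpk1, Pdzk1ip1 and Slc5a9 were tested and not called in any comparison.

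The 5 genes outside the family whose level followed the family sum most closely over the 12 libraries were Acsl1, which activates long-chain fatty acids (r = 0.96), Serpinb7, a protease inhibitor of the epidermis (r = 0.94), Tmprss4, a membrane-bound serine protease (r = 0.932), Dsg1a, a desmosomal cadherin of differentiating keratinocytes (r = 0.931), and Elmod1 (r = 0.929). Serpinb7 read 53.3 to 76.4 FPKM in Epi and 1.83 FPKM in aBSC replicate 2 at 2 months, the library in which the family sum was also lowest, 26.7 FPKM.

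Other signals from keratinocytes to dendritic epidermal T cells, a list of 25 genes with ligands, adhesion molecules and cytokines, had 17 genes tested. Of these, 2 were higher and 3 lower in tBSC than in Epi at 2 months, and 3 and 2 at 24 months, and the median over the list was -0.27 and -0.497, beside 0.177 and 0.115 over all genes. Cd200, an inhibitory ligand long used as a bulge marker, was higher in tBSC (5.11, adjusted p = 8.73e-06, at 2 months). Ahr, the aryl hydrocarbon receptor, was lower (-2.25, adjusted p = 0.00106). H60c, a ligand of the activating receptor NKG2D in skin, was lower in tBSC at 24 months (-2.38, adjusted p = 0.00102) and in aBSC at both ages (-1.92, adjusted p = 0.00569, and -2.67, adjusted p = 0.000795). In aBSC against Epi, 3 of the 17 were higher and 3 lower at 2 months, and 2 and 2 at 24 months. Of all genes, 12.7% and 12.6% were called there. H60c and Ahr had the direction of Skint1 and Skint7, and Cd200 that of Skint4. These genes were picked from different comparisons of a list with calls both ways, so the likeness is a description.

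Age was compared within each population. In resting telogen bulge, epidermis and activated bulge, 0 of 10 Skint genes were called between 24 and 2 months, and 0 of all 12468 genes (0%). At an unadjusted p under 0.05, limma gave 1, 0 and 0 members and 182, 103 and 233 genes. That member was Skint2 in tBSC, at 0.986 and 1.55 FPKM at 2 months and 2.56 and 4.36 FPKM at 24 months (0.959, 95% interval 0.0911 to 1.83, adjusted p = 1). In Epi it read 0.818 and 0.297 FPKM at 2 months and 2.07 and 0.636 FPKM at 24 months, which overlapped.

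In epidermis the mean of Skint1 was 46.9 ± 5.64 FPKM (SD, n = 2) at 2 months and 47.3 ± 10.2 FPKM (SD, n = 2) at 24 months, a difference of -0.00098 with a 95% interval of -1.09 to 1.09. Differences of the other members in epidermis ran from -0.372 (Skint6) to 0.552 (Skint3), and the narrowest interval was that of Skint4 (-0.346 to 0.963). For Skint9 the interval of -1.94 to 1.68 leaves room for large changes either way. In telogen bulge Skint4 read 14.7 and 14.2 FPKM at 2 months and 9.49 and 10.8 FPKM at 24 months, which did not overlap, and the difference of -0.473 (95% interval -1.13 to 0.181) did not pass.

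The mean age difference over the 3 populations called 0 of 10 members and 0% of all genes, with 0 members and 281 genes at an unadjusted p under 0.05. Its largest value was Skint2 (0.472, 95% interval -0.0287 to 0.973). Tests of whether the age difference itself varied between populations also called 0 members and 0% of genes in each of the 3 pairs of populations, with 84, 156 and 98 genes and 0 members at an unadjusted p under 0.05. Groups that did not overlap by age numbered 2, 1 and 0 of 10 members in tBSC, Epi and aBSC, against 54.1%, 9.22% and 17% of all genes.

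**Figure D4:**
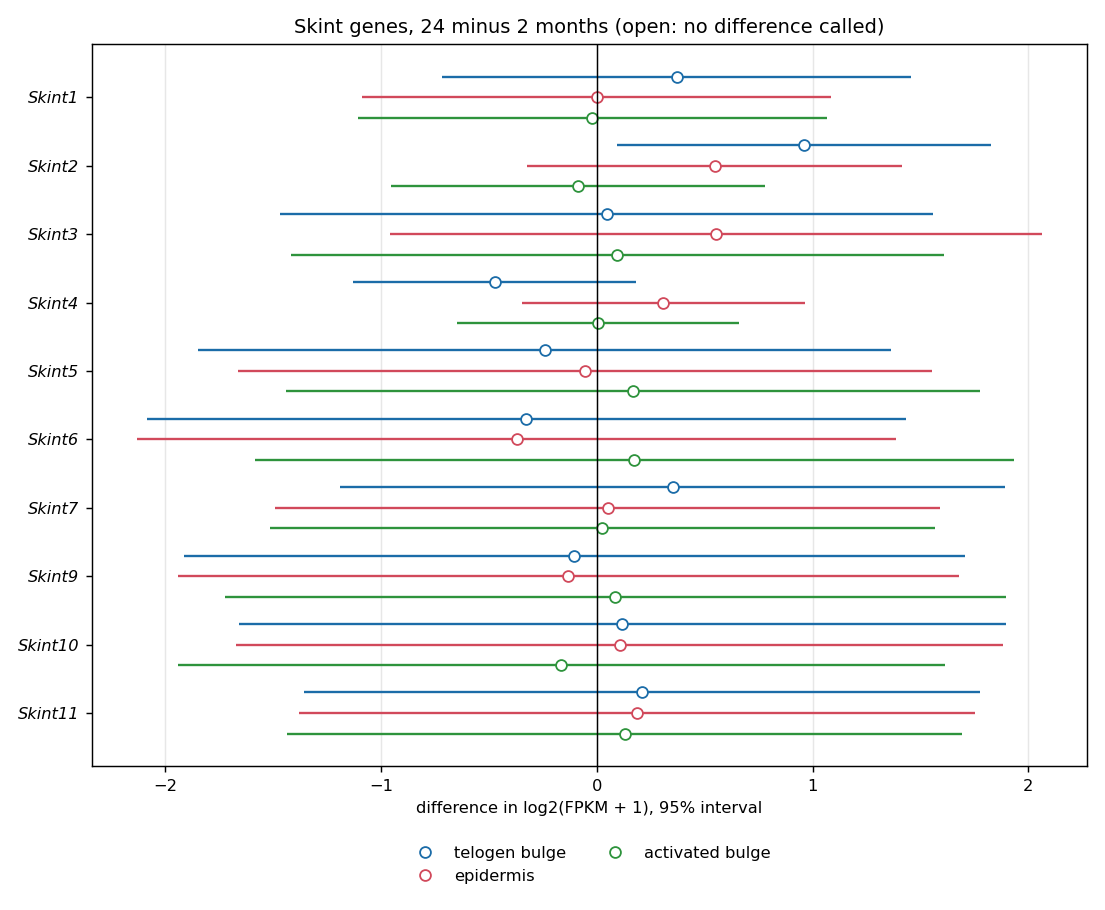
Differences in log2(FPKM + 1), 24 minus 2 months, for each Skint gene in telogen bulge, epidermis and activated bulge, with 95% intervals from limma (n = 2 libraries per group). All symbols are open because no member was called, and every interval except that of Skint2 in telogen bulge includes 0.

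In wounded epidermis the family stood lower at 24 months. Here there was 1 library per age, so the ratios compare these libraries and have no replicate check or test. All 10 members were lower at 24 months, by 1.94-fold (Skint10) to 7.34-fold (Skint7), with a median of 2.88-fold, and the family sum was 383 FPKM at 2 months and 135 FPKM at 24 months. At least 2-fold lower were 9 of 10 members, against 8.15% of the 13019 genes with at least 1 FPKM in either library. Lower by any amount were 40.9% of genes and at least 2-fold higher 24.4%, and the median gene was 1.13-fold higher at 24 months. These libraries were quantified on another annotation, so levels are not set beside those of resting epidermis.

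Skint1 was the highest member at both ages, 139.5 FPKM at 2 months and 45.5 FPKM at 24 months, 3.06-fold lower. Its 8-exon transcript read 34.9 FPKM (the authors' interval 32.4 to 37.4) and 14.8 FPKM (11.7 to 14.9), and a 3-exon transcript of 603 bases read 104.7 FPKM (97.8 to 111.5) and 30.7 FPKM (19.1 to 24.6, which does not hold the value). Both transcripts were lower at 24 months. Skint9, with a single transcript, read 42.3 FPKM (39.9 to 44.7) and 12.3 FPKM (11.2 to 13.4), 3.45-fold lower. Skint10, also read from a single transcript, had 19.2 FPKM (17.7 to 20.6) and 9.86 FPKM (8.89 to 10.8). The authors' intervals cover counting and assignment of reads within a library, not differences between mice.

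Skint11 read 48.1 FPKM at 2 months and 23.3 FPKM at 24 months, 2.06-fold lower. Skint3 read 33.5 and 12.03 FPKM, and Skint2 11.1 and 1.71 FPKM, 6.46-fold lower. With annotated transcripts alone, leaving out 1 newly assembled transcript at 2 months, Skint3 was 21.6 and 12.03 FPKM, a ratio of 0.557, short of 2-fold. The same restriction gave Skint2 7.12 and 1.71 FPKM (4.15-fold lower), Skint5 15.4 and 1.08 FPKM (14.2-fold), Skint6 11.2 and 2.47 FPKM (4.54-fold) and Skint7 24.7 and 1.48 FPKM (16.7-fold), so the sizes for these members depend on which transcripts are summed. Skint4 was read only from newly assembled transcripts, at 15.7 and 6.79 FPKM. The long genes Skint5 (24.8 and 8.32 FPKM) and Skint6 (24.6 and 11.5 FPKM) were each summed over annotated and newly assembled transcripts. The newly assembled ones differed between the 2 ages. They share 3.97% and 4.64% of their 50-base words with each other, so part of their reads could be counted for either.

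Skint7 read 24.7 FPKM at 2 months, from 3 transcripts, of which 1 begins in Skint8. At 24 months it read 3.37 FPKM, while Skint8 read 2.87 FPKM and was listed at 0 at 2 months. The sum of the 2 loci was 24.7 and 6.25 FPKM, 3.96-fold lower at 24 months. The 7.34-fold difference of Skint7 alone thus rests partly on how reads were given to the pair.

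**Figure D5:**
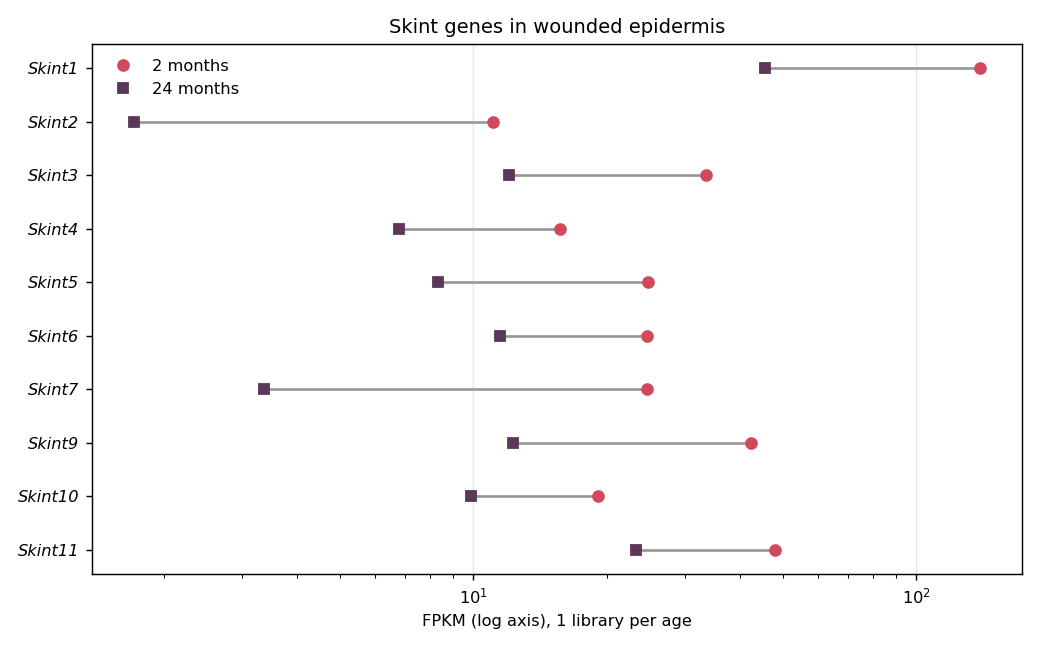
FPKM (log axis) of each Skint gene in wounded epidermis at 2 months (circles) and 24 months (squares), 1 library per age, joined by a line. Each gene lies lower at 24 months, from 1.94-fold for Skint10 to 7.34-fold for Skint7.

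Neighbouring genes in the same 2 libraries did not move together. Cmpk1 read 58.7 and 55.4 FPKM (ratio of 24 over 2 months 0.943), Spata6 6.11 and 5.56 FPKM (0.909) and Pdzk1ip1 192 and 113 FPKM (0.587). Bend5 (2.60), Slc5a9 (2.15) and Stil (2.11) were higher at 24 months. Of neighbours with at least 1 FPKM in both libraries, 0 of 6 were at least 2-fold lower.

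Other genes of the exchange between keratinocytes and T cells moved in both directions in the wound. Of the 25 listed signals, 16 reached 1 FPKM, 4 were at least 2-fold lower at 24 months and 3 at least 2-fold higher, with a median ratio of 1.19. Named after their values were seen, the 4 were Ccl27a, a skin-homing chemokine (1569 and 223 FPKM), Cd200 (42.9 and 8.09 FPKM), Ccl20 (37.7 and 12.6 FPKM) and Il1a (8.62 and 3.19 FPKM). The 3 that were higher were Efnb1, Efnb2 and Plxnb2. Of 20 genes of IL-6 and STAT3 signalling, 2 were at least 2-fold lower and 7 at least 2-fold higher, with a median ratio of 1.53. Among the 7, Tyk2 was listed at 0 FPKM at 2 months and at 5.10 FPKM at 24 months. For both lists, the shares of all genes past 2-fold were 8.15% lower and 24.4% higher.

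The make-up of the 2 wounded libraries differed in other lists as well. Suprabasal markers summed to 6165 FPKM at 2 months and 5315 FPKM at 24 months, with a median ratio of 1.003 over 12 genes. Among them Dsc1 (20.9 FPKM at 2 months) and Lor (1.93 FPKM) were listed at 0 at 24 months and entered the median as ratios of 0. Basal markers (6 of 8 matched, without Krt5 and Krt14) summed to 513 and 1195 FPKM. Wound keratinocyte markers (9 of 12, without Krt6a, Krt6b and Krt16) summed to 469 and 1139 FPKM. Of these, S100a8 gave 173 and 407 FPKM and S100a9 111 and 294 FPKM. Infundibulum and sebaceous gland markers (8 of 10) summed to 2176 and 3895 FPKM, of which Fabp5 gave 1926 and 3626 FPKM. Dst (basal) and Sprr2h (wound) were also listed at 0 at 24 months. These sums thus rest largely on a few genes. Langerhans cell markers summed to 33.2 and 70.7 FPKM and dendritic epidermal T cell markers to 4.38 and 3.95 FPKM, with 2 of the 18 matched at 1 FPKM or more. The part of cell composition in the lower Skint levels was not tested.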

How the data were processed

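FPKM from RNA-seq of 14 libraries were used. Per the submitters' processing notes, TopHat (alignment), Cufflinks (quantification) and the mm9 build were used, with versions not given in the sources used here. For 12 libraries the authors deposited FPKM for the same 28018 transcripts, as text attributes and on a scale 12533 to 18522 times the usual one. All 12 were divided by 1 constant (16679.9), the deposited FPKM of a gene's transcripts were summed, and log2(FPKM + 1) was fitted with limma 3.58.1 in R 4.3.3 over 6 group means (eBayes with trend, two-sided, Benjamini-Hochberg), checked on simulated data. Genes needed FPKM of at least 1 in 2 libraries and a longest transcript of 300 bases. Krt5 and Krt14 were left out, being listed at 0 beside values above 1000. The fit took 12468 genes.

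In the wounded pair the authors deposited FPKM for Ensembl and newly assembled transcripts. Of 96720 Ensembl transcripts at 2 months, 84067 were matched to genes by ID in GENCODE M21, and 84078 of 96727 at 24 months. Other spliced transcripts on the same strand, 12556 and 12599, went to the gene holding over a fraction of 0.5 of their exonic bases.

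All members are named, with the 5 most correlated genes, up to 3 genes of a list by smallest p, and neighbours within 1 Mb. The members and lists were chosen with earlier results of these data known. Alternatives were scaling, pseudocount, filter, transcripts, samples fitted, replicate block and each library left out.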

Additional observations from a re-analysis of the deposited data

How the results depend on the processing

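No direction of a member's difference past the threshold reversed under any alternative run. The counts of members called that moved by over 1.5 times are these, given with the full ranges of the left-out libraries and with the wounded pair. Leaving out 1 library at a time gave 1 to 5 members in tBSC against Epi at 2 months, 0 to 5 at 24 months, 2 to 4 in aBSC against Epi at 2 months, 1 to 4 at 24 months, and 0 to 3 in aBSC against tBSC at 2 months, where 3, 3, 3, 3 and 0 were reported. At 24 months, tBSC against Epi gave 6 members fitted on the groups of the comparison alone and 1 with equal library totals. In aBSC against tBSC at 24 months, quantile normalization gave 1 member and the groups alone 2. Without the 3 libraries that differed with transcript length, aBSC against Epi at 2 months gave 1. All age comparisons stayed at 0 members under each alternative. In the wounded pair 9 of 10 members were at least 2-fold lower, and 7 of 9 with the main transcript alone or with annotated transcripts alone. The cause of these changes was not tested.

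The labels do not say what a replicate number shares. Correlations of replicate differences were 0.184 to 0.787 in all 6 pairs among the Epi and aBSC groups, and -0.584 to 0.113 in the 9 pairs with a tBSC group, so libraries of 1 number deviated together in Epi and aBSC but not in tBSC, and the numbers were not taken as pairs. With the number as a replicate block the counts were 3, 3, 3 and 3 for bulge against Epi and 0 in the other 9 comparisons, and Skint1, Skint4 and Skint7 stayed the members called. With the numbers of tBSC at 2 months crossed, the counts were 4, 4, 3, 3 and, in aBSC against tBSC at 24 months, 2. That crossing was not planned and was picked from these same data, so its added calls are no separate support. Quantile normalization and equal totals moved the median of all genes by -0.199 to 0.452 on the log2 scale, most in aBSC against tBSC. With 2 libraries per group, the median standard error of a difference was 0.325, and those of the members were 0.294 to 0.813.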
